A study of Mus musculus with 8 samples.

Results

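The cytoplasmic ribosomal protein genes were taken as every locus of the deposited joined table whose gene name consists of Rpl or Rps, a number and at most a short suffix (a letter such as a, x or l, or a further digit), and whose mean over all libraries reached 0.5 TPM, the deposited measure of transcript abundance, which is corrected for length and sums to the same total in each library. Of 83 loci with such a name, 79 met that level, among 16908 loci that met it and 55223 loci in all. The 79 comprise 33 small subunit (Rps) and 46 large subunit (Rpl) genes, and the level cut kept every one of them for testing. GENCODE annotates 74 of them as protein coding and 5 as pseudogenes, namely Rps3a2, Rps3a3, Rpl6l, Rpl32l and Rps4l. Of the 4 loci below the level, Rps12l1 and Rpl39l were listed at 0 in every library, and Rpl10l and Rpl3l averaged 0.0190 and 0.0136 TPM.

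The study treated cultured muscle stem cells (satellite cells), the resident stem cells of skeletal muscle, with bone morphogenetic proteins (BMPs), secreted ligands that signal through SMAD transcription factors. Donors were wild-type C57BL/6J females 6 to 8 weeks old. After 2 days on Matrigel the cultures spent 6 h in serum-free medium with 200 ng/ml of BMPR-IA-Fc, a soluble receptor that binds BMPs. The pulse lasted 1 h. In the BMP4 experiment, isolations 48 and 54 each gave a culture with 100 ng/ml BMP4 and a vehicle culture (4 mM HCl with 0.1% BSA); in the BMP6 experiment, isolations 75 and 77 each gave a culture with 100 ng/ml BMP6 and a vehicle culture. There were thus 8 strand-specific poly(A) libraries in 4 groups of 2, and all of them had the receptor trap. Pairs of values below give isolation 48 before 54 and isolation 75 before 77.

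Ribosomal proteins are the protein parts of the cytoplasmic ribosome, which assembles in the nucleolus from a small subunit that decodes mRNA and a large subunit that joins amino acids. Most of their mRNAs begin with a C and a run of pyrimidines (a 5′ terminal oligopyrimidine, or TOP, motif), through which growth signals passing through mTOR set their translation more than their mRNA level. In muscle stem cells, ribosome production is known to increase when quiescent cells activate and begin to divide. Their genes have left many intronless copies in mammalian genomes, so that short reads from one member often match several places.

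Each library held 48012828 to 58002740 read placements as estimated from the deposited coverage, 1783100 to 2245393 of them on the 79 genes, and the least abundant member (Rps4l) rested on 196 to 469. Reads that map to several places may enter more than once, so these are not molecule counts. Of the 10 muscle stem cell and myoblast genes listed, 9 passed 0.5 TPM. The cell type label fitted these, with Pax7 at 11.1 to 16.9, Myod1 at 422 to 839 and Des at 412 to 1561 TPM. Endothelial (0.123 to 0.679 TPM), immune (1.03 to 2.17 TPM) and adipocyte (0 to 0.512 TPM) gene lists were close to 0 in sum, with Ptprc, Adgre1, Tie1 and Emcn below 0.05 TPM in every library. Fibroblast genes summed to 10.8 to 28.3 TPM, higher in the BMP6 experiment, and Schwann cell genes to 4.25 to 9.82 TPM. Pericyte and smooth muscle genes summed to 61.5 to 1430 TPM, higher in the BMP4 experiment. The 2 experiments stood apart. The 7 myofibre genes summed to 2105 and 8319 TPM with BMP4, against 2310 and 8591 TPM in vehicle cultures, and to 366 and 399 TPM with BMP6, against 294 and 394 TPM in vehicle cultures.

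RefSeq (assembly GRCm38.p6) gave a promoter for 56 of the 79 genes, in 66 windows of 250 bases before to 50 bases after a start. A C at the start followed by at least 4 further pyrimidines was present in 12 of the 66 windows (18.2%), against 2.51% of all 32851 windows in that table. The 30 bases around the start (15 before it and 15 from it on) are printed for 4 genes with such a start and, after them, for Rps27l and Rpl22l1, paralogs whose levels are described below and whose windows had none. Capitals mark the unbroken pyrimidine run from the annotated start.
Rps6 (chr4:86857353-86857382, minus strand): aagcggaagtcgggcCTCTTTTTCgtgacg
Rps18 (chr17:33955651-33955680, minus strand): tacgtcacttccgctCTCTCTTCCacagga
Rpl35a (chr16:33056467-33056496, plus strand): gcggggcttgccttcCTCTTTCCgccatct
Rpl38 (chr11:114668565-114668594, plus strand): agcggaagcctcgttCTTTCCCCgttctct
Rps27l (chr9:66946071-66946100, plus strand): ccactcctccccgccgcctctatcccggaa
Rpl22l1 (chr3:28805493-28805522, plus strand): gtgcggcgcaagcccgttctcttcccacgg
The C starts of Rps6, Rps18, Rpl35a and Rpl38 open runs of 8 or 9 pyrimidines, whereas Rps27l and Rpl22l1 have a g at the annotated start and pyrimidines further on. A run of at least 5 pyrimidines between 5 bases before and 10 bases after the start was found in 28 windows (42.4%), against 26.4% of all windows. Among short motifs searched on both strands of the windows, CCGGAAG (an ETS factor motif) was in 33.3% of the members' windows and 8.86% of all, GGGCGG (an Sp1 motif) in 59.1% and 35.7%, CACGTG (an E-box bound by Myc) in 9.09% and 7.15%, and TATAAA in 10.6% and 13.6%. These are matches of letters in annotated windows and not measured start or binding sites.

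The members were among the most abundant mRNAs of these cells and lay close together. Their mean levels had a median of 841 TPM, against 10.3 TPM over all tested loci, and 70 of the 79 lay between 300 and 2000 TPM. Highest were Rps18 at 1706 TPM, Rps12 at 1619 TPM, Rpl41 at 1609 TPM, Rpl13a at 1531 TPM and Rpl8 at 1489.8 TPM. Lowest were the pseudogene Rps4l at 6.96 TPM, Rpl21 at 58.0 TPM, Rpl7l1 (a paralog of Rpl7) at 68.3 TPM, Rps15a at 118 TPM and Rpl22 at 145 TPM. The assembled ribosome holds 1 copy of nearly every one of these proteins, and these mRNA levels per length were not in that ratio. Rps15a (107 to 128 TPM over the 8 libraries) and Rpl21 (50.9 to 64.5 TPM) were low in every library. Their leading transcripts were long, at 5179 and 1856 bases, and share 50-base stretches with 49 and 81 other loci. The stretches are 6.35% and 26.2% of these transcripts, percentages that their length lowers. The annotated pseudogenes Rps15a-ps3 to Rps15a-ps7 averaged between 421 and 674 TPM, above Rps15a itself.

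**Figure D1:**
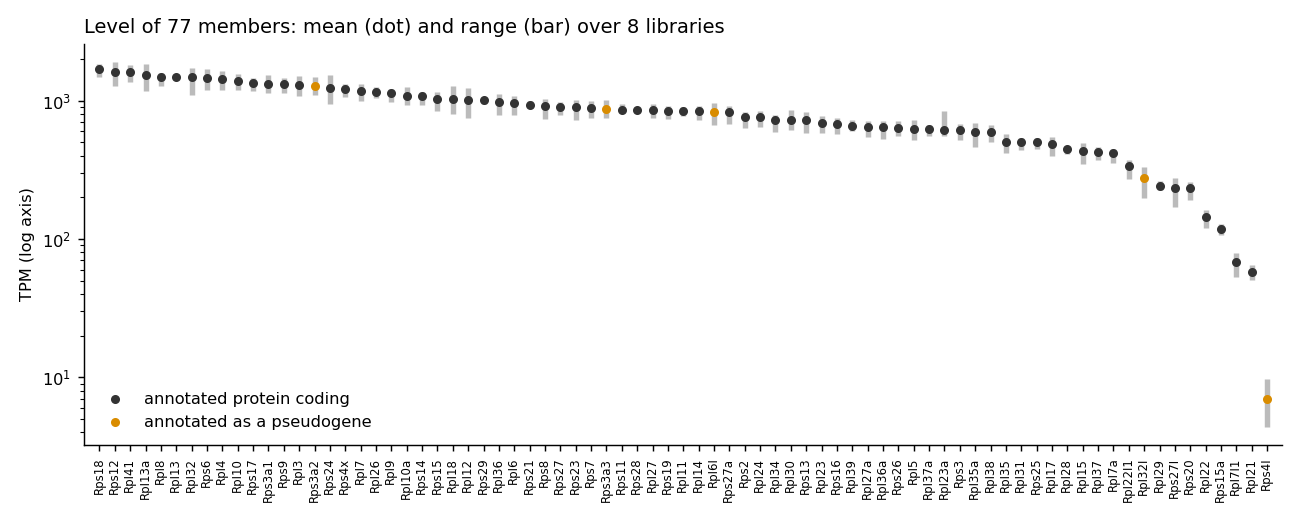
Mean TPM (log axis) of 77 of the 79 members, in falling order, with a bar from the lowest to the highest of the 8 libraries; black dots are annotated protein coding and orange dots pseudogenes. Most members form a slow decline between 2000 and 300 TPM, and only Rps4l lies at 6.96 TPM.

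Most of the variation lay between isolations and little within them. Over the 8 libraries the highest value of a member was a median of 1.33 times its lowest (range 1.09 to 2.23). The SD of log2 levels within an isolation had a median of 0.0341 over members, against 0.160 between isolations, and was the smaller of the pair for 76 of 79. Over all tested loci these medians were 0.100 and 0.284. The most variable members were Rps4l, Rpl32l, Rpl12, Rps27l and Rpl13a, and the least variable were Rps28 (819 to 896 TPM), Rpl13 (1403 to 1540.0 TPM), Rps21, Rps29 and Rpl28. Isolation 54 held the lowest of the 8 values for 70 members, and isolations 75 and 77 the highest for 65. These counts have no share of all tested loci beside them and do not set the members apart from other loci.

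Several members share so much sequence that their reads cannot be assigned to one of them. Of the 50-base stretches (the read length) of a member's leading transcript, a median of 52.3% also occur in another locus, up to 98.6% for Rps27, and 43 of 79 members share at least 50%. Rps3a1, whose product sits on the solvent side of the small subunit, shows the extent of it. Its intronless copies Rps3a2 (chromosome 14) and Rps3a3 (chromosome 13) differ from its 792 coding bases at 4 and 9 positions, and the first 215 bases are equal in all 3. Coding bases 201 to 260 (from the GENCODE vM21 transcripts) contain the first differences. Capitals mark the bases at which a copy differs from Rps3a1 and, in Rps3a1, both such positions.
Rps3a1: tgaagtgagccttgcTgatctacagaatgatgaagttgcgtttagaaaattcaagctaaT
Rps3a2: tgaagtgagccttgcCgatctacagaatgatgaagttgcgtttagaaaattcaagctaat
Rps3a3: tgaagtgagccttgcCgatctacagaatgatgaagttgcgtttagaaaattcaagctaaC
The ratio of Rps3a2 to Rps3a1 in TPM stayed between 0.958 and 0.976 over the 8 libraries, and that of Rps3a3 to Rps3a1 between 0.655 and 0.664. Rpl6l stood at 0.836 to 0.851 of Rpl6 in the BMP4 experiment and at 0.876 to 0.887 in the BMP6 experiment. Rpl32l stood at 0.172 to 0.180 and at 0.192 to 0.198 of Rpl32, so for both the experiments did not overlap. Rps4l, annotated as a transcribed pseudogene, stood at 0.00333 to 0.00902 of Rps4x, the X-linked small subunit gene, a wider range in proportion. Because of the shared sequence, values of Rps3a2, Rps3a3, Rpl6l and Rpl32l are uncertain as levels of their own. The same holds for coding members that share many stretches, such as Rps27 (98.6%), Rpl5 (93.8%) and Rpl23a (85.7%). Beyond the members, 551 pseudogene loci share at least 50 such stretches with them, 483 above 0.5 TPM, and these held 17.3 to 22.0% of all TPM, more than the members.

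The question put to the members as a whole was whether a BMP pulse moved their share of TPM, and 2 libraries a group could not settle it. Reads that enter several loci can count more than once in the total, so this is not a share of the mRNA pool. The members held 6.63 and 5.86% of all TPM with BMP4, against 6.59 and 5.80% in vehicle cultures, and 7.03 and 7.17% with BMP6, against 7.07 and 7.12% in vehicle cultures. Within each isolation the stimulated and vehicle values nearly coincided, while isolation 54 lay below and isolations 75 and 77 above. The mean was 6.25 ± 0.546% with BMP4 and 6.20 ± 0.554% in vehicle cultures (SD, n = 2 each), a difference of 0.0511 points (two-sided exact permutation p = 0.667, where the smallest possible is 0.333). With BMP6 it was 7.10 ± 0.0997%, against 7.09 ± 0.0327% in vehicle cultures (SD, n = 2 each), a difference of 0.00572 points (exact permutation p = 1, with the same smallest value). This permutation leaves the pairing by isolation out, and each SD reflects only the gap between 2 isolations. By isolation the stimulated minus vehicle differences were 0.0460 points in 48, 0.0562 in 54, -0.0417 in 75 and 0.0531 in 77, 3 of 4 positive (two-sided exact sign-flip p = 0.25, where the smallest possible is 0.13).

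**Figure D2:**
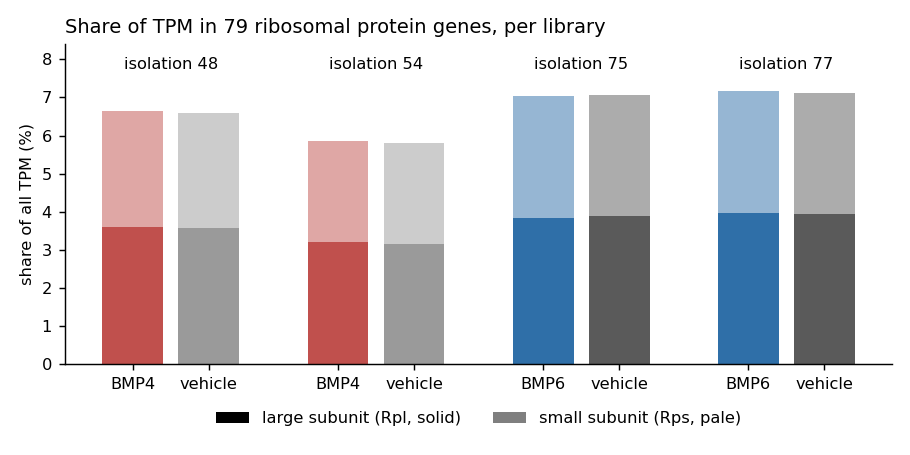
Share of all TPM (%) in the 79 genes per library, stacked by large (solid) and small (pale) subunit, with the stimulated library left of the vehicle library of its isolation. Bars of one isolation are nearly equal, from 5.80% in the vehicle library of isolation 54 to 7.17% in the BMP6 library of isolation 77.

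The subunits were also taken apart. Large subunit genes held 3.60 and 3.20% of TPM with BMP4, against 3.57 and 3.15% in vehicle cultures, and 3.84 and 3.97% with BMP6, against 3.89 and 3.94% in vehicle cultures. Small subunit genes held 3.03 and 2.66% with BMP4, against 3.02 and 2.66% in vehicle cultures, and 3.19 and 3.20% with BMP6, against 3.19 and 3.17% in vehicle cultures. By isolation the small subunit share was higher with BMP in 4 of 4, by 0.0157 points in 48, 0.00824 in 54, 0.0012 in 75 and 0.0305 in 77 (two-sided exact sign-flip p = 0.13, the smallest possible), and both BMP6 values lay above both vehicle values. The large subunit share was higher in 3 of 4, by 0.0304, 0.0479 and 0.0226 points in 48, 54 and 77, with -0.0429 in 75 (exact sign-flip p = 0.5). The small to large ratio lay between 0.805 and 0.845 in all 8 libraries. In a bulk sample, fewer cells of a type and less RNA per cell cannot be told apart, and a share says nothing of the absolute amount of these mRNAs per cell.

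Gene by gene, no member passed the test after 1 h of BMP4. In limma on log2(TPM + 0.5), fitted to all 16908 loci with adjustment over all of them, 0 of 79 members had an adjusted p under 0.05, beside 4 loci in all (0.0237%). None of the 79 had an unadjusted p under 0.05 either, against 560 loci (3.31%). The median log2 difference of the members was 0.016, against -0.016 over all tested loci, with a median SE of 0.113; 48 were positive and 72 lay within 0.1 of 0. With isolation as a block, 0 members were called of 107 loci (0.633%), and 9 members had an unadjusted p under 0.05, against 3439 loci (20.3%). Higher in both isolations were 28 members (28.3% of loci) and lower in both 23 (35% of loci). For 0 members did both BMP4 values exceed both vehicle values (10.3% of loci), and for 3 did both lie below (12% of loci).

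The largest BMP4 values each had their own shape. For all log2 differences from here on, the value after ± is the SE of the fit without the isolation block. It leaves the pairing out, and with the block the median SE of the members was 0.0328. Rpl23a, a large subunit protein at the mouth of the peptide exit tunnel, had 571 and 847 TPM with BMP4, against 574 and 577 TPM in vehicle cultures (log2 difference 0.27 ± 0.18). Only the BMP4 library of isolation 54 was high, by 0.55, against -0.01 in isolation 48. Rpl22l1, a paralog of the RNA-binding protein Rpl22 that Rpl22 is known to repress in mouse, had 364 and 313 TPM with BMP4, against 314 and 272 TPM in vehicle cultures (0.20 ± 0.12). It was higher within each isolation, by 0.21 and 0.20, but the groups met at 314 and 313 TPM. In the blocked limma fit its difference had an SE of 0.034 and an adjusted p of 0.0915, and under voom on estimated reads with the block it was the only member called (1.27% of members), beside 1113 loci or 6.58% of all in that fit, so the members' share lay below the background. Rpl18 had 1092 and 892 TPM with BMP4, against 795 and 947 TPM in vehicle cultures (0.19 ± 0.15), higher by 0.46 in isolation 48 and lower in isolation 54. Next came Rps27 at 0.12 ± 0.11 and Rpl39, a small protein lining the exit tunnel, at 0.10 ± 0.10. The lowest values were those of Rps4l at -0.13 ± 0.29, Rpl29 at -0.11 ± 0.096, Rps9 at -0.09 ± 0.088, Rps2 (near the mRNA entry channel) at -0.09 ± 0.13 and Rpl13 at -0.09 ± 0.084.

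BMP6 gave the same count. No member had a limma adjusted p under 0.05, beside 2 loci in all (0.0118%), and 0 members had an unadjusted p under 0.05, against 213 loci (1.26%). The median log2 difference was -0.0019, against -0.0021 over all loci; 38 members were positive and 75 lay within 0.1 of 0. With the isolation block 0 members were called of 25 loci (0.148%), and 1 had an unadjusted p under 0.05, against 967 loci (5.72%). That member was Rpl30, a large subunit protein whose yeast counterpart is known to bind its own transcript. Rpl30 had 741 and 772 TPM with BMP6, against 817 and 859 TPM in vehicle cultures (-0.15 ± 0.10), and both BMP6 values lay below both vehicle values. Its blocked limma p was 0.00314 and the adjusted p 0.359. In the BMP4 experiment it had 682 and 616 TPM with BMP4, against 689 and 615 TPM in vehicle cultures, with the stimulated and vehicle values nearly equal in each isolation.

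Among the highest BMP6 values were those of Rpl18, Rps24, Rps12 and Rps4l. All of them are among the 17 members whose leading transcript share ranged over more than 20 points, as given further on. So are Rpl10a, Rps27a and Rpl38, whose BMP6 differences, given below, were smaller. A link between the shifts and the differences was not tested. Rpl18 had 1088 and 1283 TPM with BMP6, against 1075 and 1062 TPM in vehicle cultures (0.15 ± 0.15), set by isolation 77 (0.27). Rps24, a small subunit protein mutated in Diamond-Blackfan anaemia in humans, had 1518 and 1130.5 TPM with BMP6, against 1534 and 952 TPM in vehicle cultures (0.12 ± 0.25). Its value was low in both libraries of isolation 77, and its difference was 0.25 there and -0.01 in isolation 75. Rps12, in the beak of the small subunit, had 1760.1 and 1898 TPM with BMP6, against 1688 and 1680.4 TPM in vehicle cultures (0.12 ± 0.15), with both BMP6 libraries above both vehicle libraries. Rps4l was at 0.08 ± 0.29. Below 0 were Rpl21 at -0.10 ± 0.10, Rps15a at -0.09 ± 0.11, Rps2 at -0.08 ± 0.13 and Rps3a3 at -0.06 ± 0.11. In all, 6 members (7.59%, against 10.6% of loci) had both BMP6 values above both vehicle values and 11 (13.9%, against 9.95% of loci) both below. Higher in both isolations were 21 members (26.6%, against 26.7% of loci) and lower in both 25 (31.6%, against 27.1% of loci).

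Averaged over both ligands, 0 members were called by limma, beside 12 loci (0.071%); 3 members had an unadjusted p under 0.05 in the blocked fit, against 2263 loci (13.4%), and 0 in the unblocked one, against 405 (2.40%). The blocked fit called 114 loci (0.674%) and 0 members. Rps13 and Rpl22 were higher in all 4 isolations (2.53% of members, against 8.19% of loci). Rpl3, Rpl27, Rps2, Rps25 and Rpl7l1 were lower in all 4 (6.33% of members, against 9.2% of loci). Rps2 had 799 and 638 TPM with BMP4, against 810.4 and 709.8 TPM in vehicle cultures. With BMP6 it had 769 and 765 TPM with BMP6, against 825 and 792 TPM in vehicle cultures, and both ligands gave an average log2 difference of -0.08 ± 0.093. Rps25, which is known to serve internal initiation on viral RNAs, averaged -0.04 ± 0.064. The most positive averages were those of Rpl18 at 0.17 ± 0.10, Rpl23a at 0.14 ± 0.13, Rps24 at 0.09 ± 0.17, Rpl22l1 at 0.08 ± 0.087 and Rps12 at 0.06 ± 0.11. The remaining low ones were Rpl30 at -0.08 ± 0.072, Rpl7l1 at -0.05 ± 0.095 and Rpl13 at -0.05 ± 0.059.

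The BMP6 difference minus the BMP4 difference was called for 0 members and 0 loci (0%) by limma, with or without the block; 0 members and 244 loci (1.44%) had an unadjusted p under 0.05, and 10 members and 2251 loci (13.3%) in the blocked fit. The most negative were Rpl23a at -0.26 ± 0.26, Rpl22l1 at -0.25 ± 0.17, Rps15a at -0.14 ± 0.15, Rpl39 at -0.13 ± 0.15 and Rpl30 at -0.14 ± 0.14, and among the most positive were Rps4l at 0.21 ± 0.41, Rps9 at 0.12 ± 0.13, Rpl29 at 0.13 ± 0.14 and Rpl36 at 0.15 ± 0.16. The blocked limma adjusted p of Rpl22l1 was 0.268. Rpl22l1 had 333 and 369 TPM with BMP6, against 354 and 370.3 TPM in vehicle cultures, lower with BMP6 in isolation 75 and level in 77. The median SE of this difference was 0.160 without the block and 0.0463 with it. A p that misses the threshold does not show that the ligands acted alike.

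**Figure D3:**
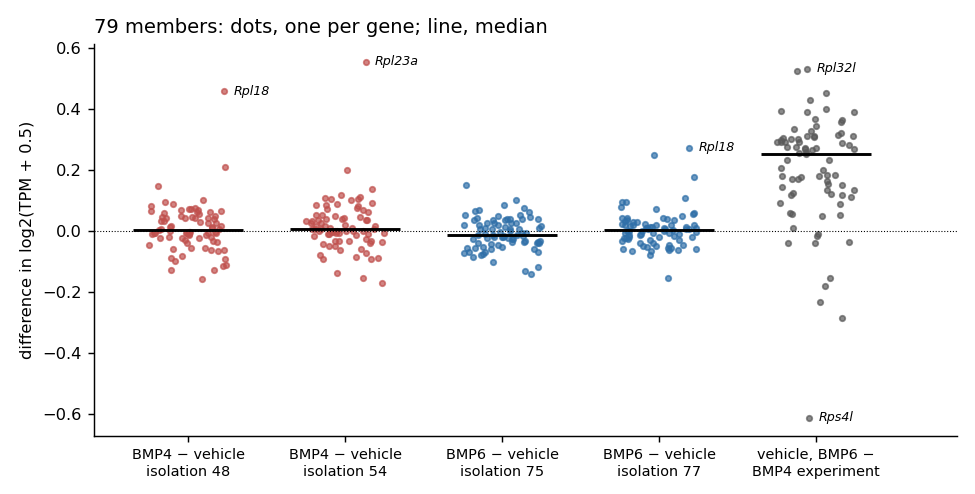
Difference in log2(TPM + 0.5) of each of the 79 members, stimulated minus vehicle within each isolation and, at the right, the mean of the vehicle libraries of the BMP6 experiment minus that of the BMP4 experiment; lines are medians. The 4 stimulation columns centre on 0, with medians, from left to right, of 0.0016, 0.0062, -0.013 and 0.0042, and the vehicle column centres on 0.25.

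**Figure D4:**
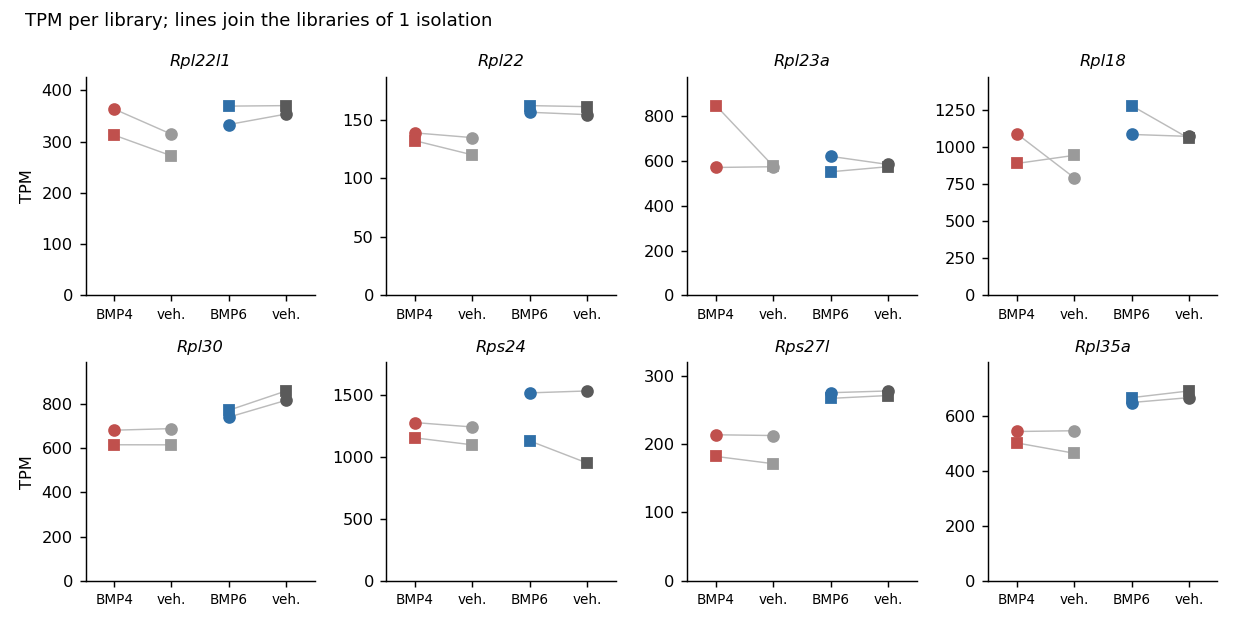
TPM per library of 8 members named for a comparison, with the stimulated library left of its vehicle; circles are isolations 48 and 75, squares 54 and 77, and lines join libraries of one isolation. Rpl22l1 slopes down to its vehicle in both BMP4 isolations, Rpl30 slopes up to its vehicle in both BMP6 isolations, and Rps27l and Rpl35a differ mainly between experiments.

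Members with known roles outside or within the ribosome were examined in both comparisons, and none passed the test. Rps6, the small subunit protein phosphorylated by S6 kinases, had 1478 and 1191 TPM with BMP4, against 1429 and 1219.7 TPM in vehicle cultures, and 1518 and 1648 TPM with BMP6, against 1541 and 1695 TPM in vehicle cultures. Its log2 differences were 0.01 ± 0.14 and -0.03 ± 0.14. Rpl5 and Rpl11, which with 5S rRNA bind Mdm2 and stabilise p53 when ribosome assembly fails, had BMP4 differences of 0.03 ± 0.12 and 0.05 ± 0.12 and BMP6 differences of -0.01 ± 0.12 and 0.03 ± 0.12. Rpl11 had 902 and 838 TPM with BMP4, against 906 and 779 TPM in vehicle cultures. Rps19 and Rps26, of the small subunit and mutated in Diamond-Blackfan anaemia in humans, gave -0.02 ± 0.12 and -0.01 ± 0.11 with BMP4 and 0.05 ± 0.12 and 0.03 ± 0.11 with BMP6. Rps14, lost in the human 5q- syndrome, gave -0.04 ± 0.13 with BMP4 and had 1066 and 1141 TPM with BMP6, against 1072 and 1131 TPM in vehicle cultures.

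Rps27a, which encodes a fusion of ubiquitin to the small subunit protein eS31, gave 0.08 ± 0.12 with BMP4 and 0.01 ± 0.12 with BMP6. Rpl38, needed for normal Hox protein patterns in the mouse embryo, gave 0.01 ± 0.10 with BMP4 and 0.01 ± 0.10 with BMP6. Rpl41, the smallest ribosomal protein, gave 0.04 ± 0.13 with BMP4 and 0.06 ± 0.13 with BMP6. Rpl13a, whose human product can leave the ribosome to repress inflammatory mRNAs, had 1369.6 and 1178 TPM with BMP4, against 1483 and 1200.1 TPM in vehicle cultures, and 1672 and 1832 TPM with BMP6, against 1661 and 1849 TPM in vehicle cultures. By isolation its BMP4 differences were -0.11 and -0.03. Rpl36a, Rpl10a and Rps3a1 gave 0.08 ± 0.11, -0.01 ± 0.12 and 0.06 ± 0.11 with BMP4 and -0.04 ± 0.11, -0.02 ± 0.12 and -0.05 ± 0.11 with BMP6. The limma adjusted p was 1 for every one of these genes with either ligand.

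Among paralog pairs, the usual member was far above the rarer one except for Rpl22. Rpl22l1 exceeded Rpl22 in every library, at 2.13 to 2.62 times its TPM, with Rpl22 at 139 and 132 TPM with BMP4, against 135 and 119.9 TPM in vehicle cultures, and at 156 and 162 TPM with BMP6, against 154 and 161 TPM in vehicle cultures. Rpl7l1 stood at 0.0494 to 0.0648 of Rpl7. Rps27l, which is known as a p53 target in human cells, stood at 0.218 to 0.241 of Rps27 in the BMP4 experiment and at 0.281 to 0.292 in the BMP6 experiment, so that the ranges did not overlap. Rpl3l, the paralog of striated muscle, was at or near 0 beside Rpl3 at 1305 TPM. The germ cell paralogs Rpl10l and Rpl39l were likewise at or near 0, beside Rpl10 at 1393 TPM and Rpl39 at 658 TPM.

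The largest median difference of the members was between the unstimulated cultures of the 2 experiments. Against the vehicle cultures of the BMP4 experiment, those of the BMP6 experiment had a higher value for 69 of 79 members, with a median log2 difference of 0.25 (all tested loci, -0.014), and a share of TPM 0.898 points higher, at 7.09 ± 0.0327% against 6.20 ± 0.554% (SD, n = 2 each; exact permutation p = 0.333, the smallest that 2 against 2 allows). In limma 4 members rose and 0 fell, beside 27.2% of all loci (10.6% higher and 16.6% lower), so the members' 5.06% lay below the background. At an unadjusted p under 0.05 there were 31 members, against 45.2% of loci. Both vehicle values of the BMP6 experiment lay above both of the BMP4 experiment for 56 members (70.9%; 34.9% of loci) and below for 5 (6.33%; 38.8% of loci). No blocked value exists here, since no isolation served both experiments, and experiment and isolation cannot be told apart. The fit takes its spread from 8 libraries as if independent, though they come from 4 isolations. Deviations of same-isolation libraries correlated at 0.609 (48 and 54) and 0.863 (75 and 77) over members. The limma p values between the vehicles, here and for the lists below, are thus likely too small.

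The 4 members that rose were Rps27l, Rpl35a, Rpl6l and Rpl30. Rps27l (chr9:66853368-66856796, GRCm39) had 278 and 271 TPM in the vehicle cultures of the BMP6 experiment, against 212 and 171 TPM in those of the BMP4 experiment (0.52 ± 0.14, limma adjusted p = 0.036). Rpl35a (chr16:32876823-32880559), a large subunit protein mutated in Diamond-Blackfan anaemia in humans, had 667 and 691 TPM in the vehicle cultures of the BMP6 experiment, against 546 and 464 TPM in those of the BMP4 experiment (0.43 ± 0.11, limma adjusted p = 0.034). Isolation 54 was the lowest of the 4 vehicles for both. Rpl6l (chr10:110961712-110962582), whose reads are shared with Rpl6, had 949.7 and 939 TPM in the vehicle cultures of the BMP6 experiment, against 765 and 670.4 TPM in those of the BMP4 experiment (0.40 ± 0.11, limma adjusted p = 0.0423). Rpl30 (chr15:34440651-34443786) had 817 and 859 TPM in the vehicle cultures of the BMP6 experiment, against 689 and 615 TPM in those of the BMP4 experiment (0.36 ± 0.10, limma adjusted p = 0.0434). With its trend on GC content removed, the value of Rpl30 was 0.15 with an adjusted p of 0.17.

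Past these, Rpl32l at 0.53 ± 0.16, Rpl12 at 0.45 ± 0.17 and Rpl13a at 0.39 ± 0.14 missed the threshold, with limma adjusted p values of 0.0548, 0.0841 and 0.0783. Among the lowest values were Rps4l at -0.61 ± 0.29, Rps15 at -0.28 ± 0.13, Rpl29 at -0.18 ± 0.096 and Rpl37a at -0.15 ± 0.11, none of them called. Rps6, Rpl5, Rps3a1 and Rps27a lay at 0.29, 0.31, 0.29 and 0.27, whereas Rpl11 lay at -0.04 and Rps14 at 0.05. Large subunit members had a median of 0.27 (41 of 46 positive) and small subunit members of 0.18 (28 of 33 positive). Members with at least 50% shared stretches had a median of 0.27, those with less 0.21, and the 7 with under 10% shared stretches were all positive with a median of 0.27. The 12 members with a pyrimidine start had a median of 0.26 and the other 44 with a window 0.22.

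The size of the difference turned on isolation 54. Between single vehicle libraries, the median member of isolation 54 minus that of 48 was -0.18 in log2, with 4 of 79 higher, and isolations 75 and 77 exceeded 48 by 0.12 and 0.15 and exceeded 54 by 0.30 and 0.34, while 77 and 75 differed by 0.013. Without the vehicle library of isolation 54 the median was 0.13, and over the omission of each library in turn it ranged over 0.13 to 0.33. Whether the member calls rested on single libraries cannot be decided, since each such fit leaves a group without replication. The count of members called was 33 with the median of all other loci made equal between libraries. This moved the median of all loci to 0.089 and that of the members to 0.37. That is 41.8% of members, all higher, beside 30.3% of all loci (16.8% higher). With the GC trend removed 23 members were called (29.1%), beside 23.8% of loci (12.1% higher), and with voom 15 (19.0%), beside 27.5% (13.5% higher). With the 4 vehicle libraries alone 0 were called, beside 17.0% of loci. Isolation 54 also had the highest myofibre sum, 8591 TPM in its vehicle library. Pericyte and smooth muscle genes summed to 61.5 and 71.0 TPM in the vehicle cultures of the BMP6 experiment, against 742 and 1430 TPM in those of the BMP4 experiment. These marker sums moved with the experiments, and their part in the members' levels was not tested.

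Member differences also followed the base composition of their transcripts. Over the 79 members, Spearman's rho between log2 difference and GC content of the leading transcript was -0.48 for BMP4, 0.42 for BMP6 and -0.35 between the vehicles, and over 16272 other loci it was -0.38, 0.19 and -0.30, a description over genes that share the same libraries. By isolation rho was -0.44 in 48, -0.39 in 54, 0.26 in 75 and 0.46 in 77. Rpl22l1 and Rpl30, at 39.0 and 42.0% GC, lie at the low end, and Rps4l at the high end with 61.3%. The 34 members below 50% GC had median differences of 0.042 for BMP4, -0.021 for BMP6 and 0.27 between vehicles, against -0.0040, 0.0055 and 0.18 in the 45 others. What set the relation was not tested.

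**Figure D5:**
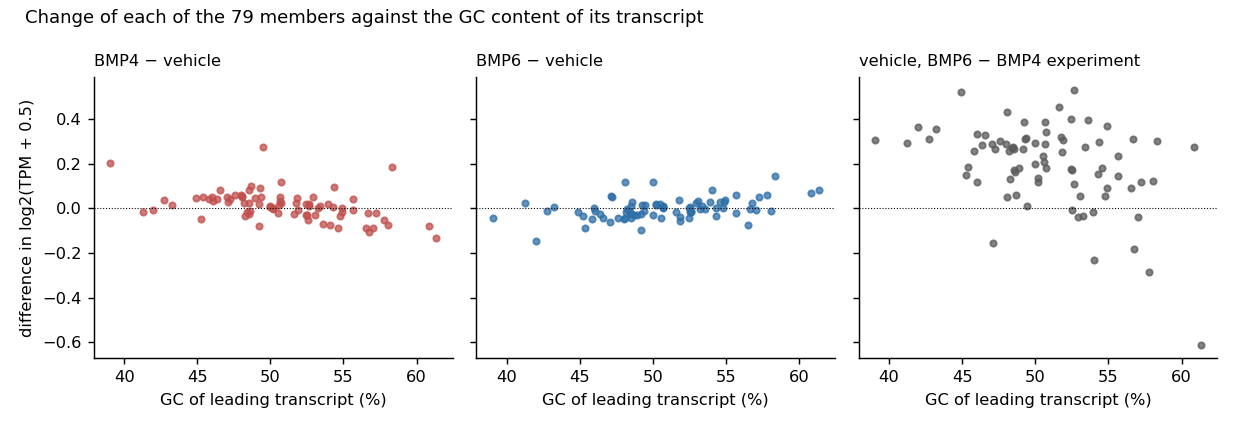
Log2 difference of each of the 79 members against the GC content (%) of its leading transcript, for BMP4 minus vehicle, BMP6 minus vehicle and the vehicles of the BMP6 minus the BMP4 experiment. The points slope down in the outer panels and up in the middle one.

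Transcript assignment within a member was less steady than its sum. The leading transcript held a median of 98.5% of a member's TPM, but its share ranged over more than 20 points between libraries in 17 of 79, led by Rpl10a (46.4 to 94.4%), Rps27a (25.3 to 71.6%) and Rps4l. The 485-base transcript of Rps24 was at 729 TPM with BMP6 and 476 TPM in the vehicle culture of isolation 77, against 969 to 1296 TPM in the other 6 libraries. A 584-base transcript of Rps12 was at 723 TPM in the vehicle culture of isolation 54 and at 648 and 739 TPM in the vehicle cultures of isolations 75 and 77, and at 0 in the other 5 libraries. For Rpl18, a 2989-base transcript reached 122 TPM in the vehicle culture of isolation 48, where the leading transcript was lowest at 621 TPM, and lay between 1.82 and 40.3 TPM elsewhere. By name, in 71 of 79 at least 98% of the locus's TPM came from transcripts of the member's own name, and Rpl13a was lowest at 95.6%, with small nucleolar RNA genes in its introns.

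Some ribosomal proteins lie outside the naming rule. Rpl19 and Rps10 had TPM under the names of other loci and so are not among the 79. Rpl19, of the large subunit, had 1488 and 1249 TPM with BMP4, against 1452 and 1245 TPM in vehicle cultures, and 1629 and 1630.3 TPM with BMP6, against 1551 and 1594 TPM in vehicle cultures. Rps10, of the small subunit, had 852 and 639 TPM with BMP4, against 923 and 845 TPM in vehicle cultures, and 868 and 834 TPM with BMP6, against 927 and 793 TPM in vehicle cultures. Rps10 was thus lower with BMP4 in both isolations and went opposite ways in the BMP6 isolations. The other cytoplasmic ribosomal proteins (the stalk proteins Rplp0, Rplp1 and Rplp2, Rpsa, Fau, Rpl36al and Rps27rt among them) held 0.867 to 1.12% of TPM. None of these 8 was called in either BMP comparison, and in the vehicle comparison Rplp2 rose (0.39 ± 0.10, limma adjusted p = 0.0377). Rpl36al, a near copy of Rpl36a, had 380.2 and 391 TPM with BMP4, against 371 and 265 TPM in vehicle cultures, and 378 and 414 TPM with BMP6, against 284 and 291 TPM in vehicle cultures. It was higher in 4 of 4 isolations, with an average log2 difference of 0.38 ± 0.11, an unadjusted limma p of 0.0142 and an adjusted p of 1.00.

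Lists of genes that work with the ribosome were compared in the same limma fits, and with either BMP 0 genes were called in any of the 8 lists, also with the isolation block. Between the vehicles, 18 of 38 tested ribosome biogenesis genes rose (47.4%) and 0 fell, with a median log2 difference of 0.97, beside 10.6% of all loci higher and 16.6% lower, the background for every list here. Dkc1, the pseudouridine synthase of box H/ACA particles, was at 1.73 ± 0.49, Nop58, of box C/D particles, at 1.53 ± 0.37 and Ncl (nucleolin) at 1.52 ± 0.41. All 10 host genes of small nucleolar RNAs rose (median 1.54), with Gas5 at 2.01 ± 0.48 and Snhg1 at 2.80 ± 0.48; the spliced transcripts of such hosts are known to carry TOP motifs. Of 19 other TOP mRNAs 6 rose and 1 fell (median 0.25), with the nucleolar chaperone Npm1 at 1.27 ± 0.37, the poly(A)-binding protein Pabpc1 at 1.11 ± 0.33 and the initiation factor subunit Eif3f at -0.43 ± 0.11. Of 11 ribosomal protein chaperones and importers 5 rose and 0 fell (median 0.56), among them Tsr2, the Rps26 chaperone, at 1.14 ± 0.20 and the importin Ipo7 at 0.98 ± 0.13.

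Regulators of growth and translation were split, with 5 of 18 higher and 4 lower (median -0.075). Myc, which drives ribosome production, was at 2.29 ± 0.46 and its antagonist Mxd4 at -2.04 ± 0.31, while the S6 kinase gene Rps6kb2 was at -1.30 ± 0.21. Mitochondrial ribosomal proteins, a separate set encoded in the nucleus, had 8 of 82 higher (9.76%) and 2 lower (median 0.069), beside 10.6% of all loci higher and 16.6% lower, with Mrps6 at 1.10 ± 0.23 and Mrps12 at -0.68 ± 0.20. Annotated ribosomal protein pseudogenes had 28 of 226 higher (12.4%) and 1 lower (median 0.21), against a member median of 0.25. The share higher was near the background in both of these lists. With BMP4 and BMP6 the ribosome biogenesis list had medians of -0.049 and -0.033, with 12 and 9 of 38 positive, against -0.016 and -0.0021 over all tested loci. The medians of the snoRNA host list were 0.022 and -0.070. Between the vehicles, the medians of these lists depended on the vehicle libraries of the BMP4 experiment. The ribosome biogenesis and snoRNA host medians were 0.97 and 1.54 with all libraries. Without the vehicle library of isolation 54 they were 0.60 and 1.12. Without the other vehicle library of the BMP4 experiment they were 1.29 and 2.03. Leaving out one or the other vehicle library of the BMP6 experiment gave 0.967 and 0.971 for ribosome biogenesis, and 1.64 and 1.43 for snoRNA hosts. Whether the calls rested on single libraries cannot be decided, since each such fit leaves 1 library in a group.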

How the data were processed

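RNA from 8 cultures was sequenced as 50-base single-end reads from strand-specific poly(A) libraries, per the labels' protocols. The submitters' processing notes name STAR 2.7.11a, SAMtools 1.17, StringTie 2.2.1 and GRCm39. Per the file headers, StringTie quantified a merged annotation without multi-mapping correction, so reads of near-identical copies can enter several loci, and no strand option is recorded. TPM and FPKM were deposited by the authors, per locus in joined tables; coverage (signal) per locus and transcript was deposited by the authors too, and reads were estimated here from coverage and length. Columns were matched to samples by isolation and culture code, because the running number differs from the labels for most. Separate isolations are the replicates.

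Members, lists and tests were chosen with earlier results of these data known. limma 3.58.1 (R 4.3.3) was fitted to log2(TPM + 0.5) of the 16908 loci with mean TPM of at least 0.5, over all 8 libraries in 4 groups, with Benjamini-Hochberg adjustment; fold changes on that scale understate low genes. The blocked fit had isolation as a fixed term, since the labels give each stimulated and vehicle culture of a number the same isolation; deviations of same-isolation libraries correlated at 0.707 (48 and 54) and 0.455 (75 and 77) over all loci. Shares were compared by exact permutation in SciPy 1.17.1. The scripts were tested on simulated data. Libraries of a group differed by more than sampling noise. The chi-square per locus was 275 with BMP4 and 250 in its vehicle cultures, and 39.3 with BMP6 and 38.4 in its vehicle cultures. The fit pools 1 spread per locus over both experiments. Its SE without the block can thus be too small for the BMP4 experiment and too large for the BMP6 experiment. Named were the 5 largest differences in each direction per comparison, every called member, the highest, lowest, most and least variable members, and paralogs and members of known role. Promoters are RefSeq's on GRCm38.p6 and transcript sequence and gene types GENCODE vM21's on GRCm38, matched by name or transcript; they were not converted. Some members chosen by this rule are not reported here. Intervals and p-values cover the spread between these cultures only.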

Additional observations from a re-analysis of the deposited data

How the results depend on the processing

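With either BMP no alternative called a member except voom on estimated reads with the replicate block, which called 1 (Rpl22l1) with BMP4. The count of all loci moved. For BMP4 it was 4, and 8 with no filter on low values, 2 with FPKM, 0 with only the 4 libraries compared, 107 with the isolation block, 141 with the block and GC trend removed and 1113 under voom with the block. For BMP6 it was 2, and 0 with a pseudocount of 2 or a filter of 5 TPM, 12 with no filter or only the 4 libraries compared, 25 with the block, 30 with block and GC and 85 under voom with the block. For either BMP it was 12, and 7 with no filter, 114 with the block, 134 with block and GC and 386 under voom with the block; for the difference of the BMPs 0, and 1 with no filter and 72 under voom with the block. Between the vehicles the 4 members became 0 with no filter or only the 4 libraries, 33 with the medians of other loci made equal, 15 under voom without a block and 23 with the GC trend removed, and the 4602 loci became 2490 with no filter and 2879 with only the 4 libraries. The median of 0.25 was 0.36 with FPKM (all loci 0.079) and 0.37 with equal medians. The share difference of 0.898 points was 1.49 points as a share of estimated reads scaled to the same mean share. Unscaled, the members held 4.29 and 4.38% of estimated reads in vehicle cultures of the BMP6 experiment, against 3.77 and 3.15% in the BMP4 experiment.

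Leaving out each library in turn gave these ranges. Members called between the vehicles ranged over 0 to 9 and loci over 5 to 5551, and no member was called for a BMP in any of them. Loci called ranged over 0 to 16 for BMP4 (21 to 145 with the block, 97 without isolation 54), 0 to 11 for BMP6 (0 to 49, 47 without isolation 54), 0 to 24 for either (15 to 192, 119 without isolation 54 and 22 without isolation 77) and 0 to 4 for the difference (0 to 16). Median member differences ranged over -0.087 to 0.11 for BMP4, -0.013 to 0.0039 for BMP6, -0.043 to 0.051 for either, -0.11 to 0.084 for the difference and 0.13 to 0.33 between vehicles. Share differences ranged over -0.340 to 0.443, -0.0648 to 0.0762, -0.167 to 0.224, -0.437 to 0.346 and 0.507 to 1.29 points in the same order. With 2 libraries a group the precision of a member's difference was limited to a median SE of 0.113 (0.0328 with the block). The GC trend was chosen for removal after seeing the data. The cause of each move was not tested.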
